A study of Mus musculus with 6 samples.

Results

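The genes described here encode enzymes and readers of DNA methylation and of histone acetylation and methylation. They were 38 genes chosen by function and matched by symbol in the deposited table, each found in 1 of its 33274 gene rows. RNA-seq counts came from the cerebral cortex of 6 wild-type female ICR mice, an outbred stock, taken at 6 weeks of age. In the methylphenidate lineage (3 libraries) the paternal grandsire had been injected under the skin with methylphenidate, a blocker of dopamine and noradrenaline transporters, at 15 mg/kg on 21 days. In the saline lineage (3 libraries) the paternal grandsire had received saline at 10 mL/kg on the same schedule. Treated males were bred to females without drug, and 1 F1 son per litter was bred again to a female without drug, so neither the F1 sires nor the sampled F2 daughters were dosed. The labels do not say which F2 mice shared a sire or a grandsire. The germ cells through which a treatment of the grandsire could pass were not sampled, so the values below describe the enzymes in the cortex of the grandoffspring.

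DNA methyltransferases add a methyl group to cytosine, mostly where it precedes guanine. Dnmt1, brought to newly copied DNA by Uhrf1, keeps the mark through cell division, while Dnmt3a and Dnmt3b place it anew. Tet enzymes oxidise methylated cytosine, and the glycosylase Tdg can then cut out the oxidised base, so that repair restores unmodified cytosine. Proteins with a methyl-CpG-binding domain read the mark and recruit deacetylases. On histones, acetyltransferases and deacetylases set acetylation, which goes with active chromatin, and methyltransferases and demethylases write and erase marks of active or silent chromatin. Mature neurons do not divide, but they hold high amounts of methylated and oxidised cytosine, and neuronal activity changes several of these enzymes.

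Total counts were 23896752 to 28120640 in the methylphenidate lineage and 24000528 to 26914606 in the saline lineage, and the 38 genes took 0.205 to 0.219% of the counts of a library. Cortical excitatory neuron markers were abundant throughout (Slc17a7, the vesicular glutamate transporter, had at least 24638 counts in each library). Markers of striatal projection neurons, which lie below the cortex, differed between libraries. Their 10 genes summed to 522, 286 and 662 CPM (the count relative to the TMM-scaled library total) in methylphenidate replicates 1 to 3, against 299, 246 and 219 CPM in saline replicates 1 to 3. All 9 of these markers that passed the expression filter had a log2 fold change above 0, and none of the 10 was at 0 in all libraries. By this sum, of which Ppp1r1b made up a large share, methylphenidate replicate 2 lay inside the saline range, and replicates 1 and 3 lay above it. The mean of centred log2 CPM over the same list (each gene's deviation from its mean over libraries) was 1.02, -0.059 and 1.38 in the methylphenidate lineage, against -0.15, -1.05 and -1.14 in the saline lineage, so that by this measure all 3 methylphenidate libraries, replicate 2 included, were above the saline lineage. Of the 9 tested markers, 5 were higher in every methylphenidate library than in every saline library. A list of 10 markers of hypothalamus and basal forebrain summed to 13.5, 10.1 and 35.4 CPM in the methylphenidate lineage, against 4.80, 4.02 and 4.34 CPM in the saline lineage, and all 6 of them that were tested had a log2 fold change above 0. For this list all 3 methylphenidate libraries were above the saline lineage. Choroid plexus markers varied within both lineages, with sums of 24.5 to 503 CPM in the methylphenidate lineage and 43.1 to 657 CPM in the saline lineage. In bulk tissue, fewer cells of a type and less RNA per cell cannot be told apart.

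No gene of the 38 differed between the lineages past the threshold of 0.05 on the adjusted p (edgeR quasi-likelihood test, Benjamini-Hochberg over all 18327 genes tested; smallest adjusted p = 0.553, for Hdac11). All 38 passed the filter on low counts. Over the whole table, 5 genes passed, or 0.0273%. At an unadjusted p under 0.05 there were 4 of the 38, Hdac11 and Gadd45g with higher and Gadd45a and Tdg with lower values in the methylphenidate lineage. That is 10.5% of the set, against 7.51% of all genes tested, of which 4.2% were on the higher and 3.31% on the lower side. Other tools also gave 0 of the 38 past the adjusted threshold, while of all genes 149 passed in DESeq2 (0.65% of the 22937 given an adjusted p) and 5 in limma-voom (0.0273%). At an unadjusted p under 0.05, DESeq2 had 4 of the 38, with Tet3 in place of Tdg, against 4.09% of the 33258 genes it tested without the expression filter. Limma-voom had 4, with Uhrf1 in place of Gadd45a, against 7.72% of all genes. The log2 fold change (methylphenidate minus saline) was above 0 in 19 genes and below 0 in 19, with a median of 0.0056, against a median of 0.00082 over all genes tested, of which 50.3% were above 0.

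The intervals reflect the spread among these 6 libraries only. They do not bound a difference between lineages, since the labels do not say which mice shared a sire or a grandsire. For 31 of the 38 genes the 95% interval of the log2 fold change lay within a 1.5-fold change in either direction, a property shared by 58.1% of all genes tested. The 7 with wider intervals were Gadd45g, Gadd45a, Uhrf1, Ehmt1, Dnmt3b, Tet1 and Kdm6b. The standard error of a log2 fold change had a median of 0.10 over the 38 genes and 0.15 over all genes tested. Of the 38 genes, 29 had a log2 fold change smaller than 0.15 in size.

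**Figure D1:**
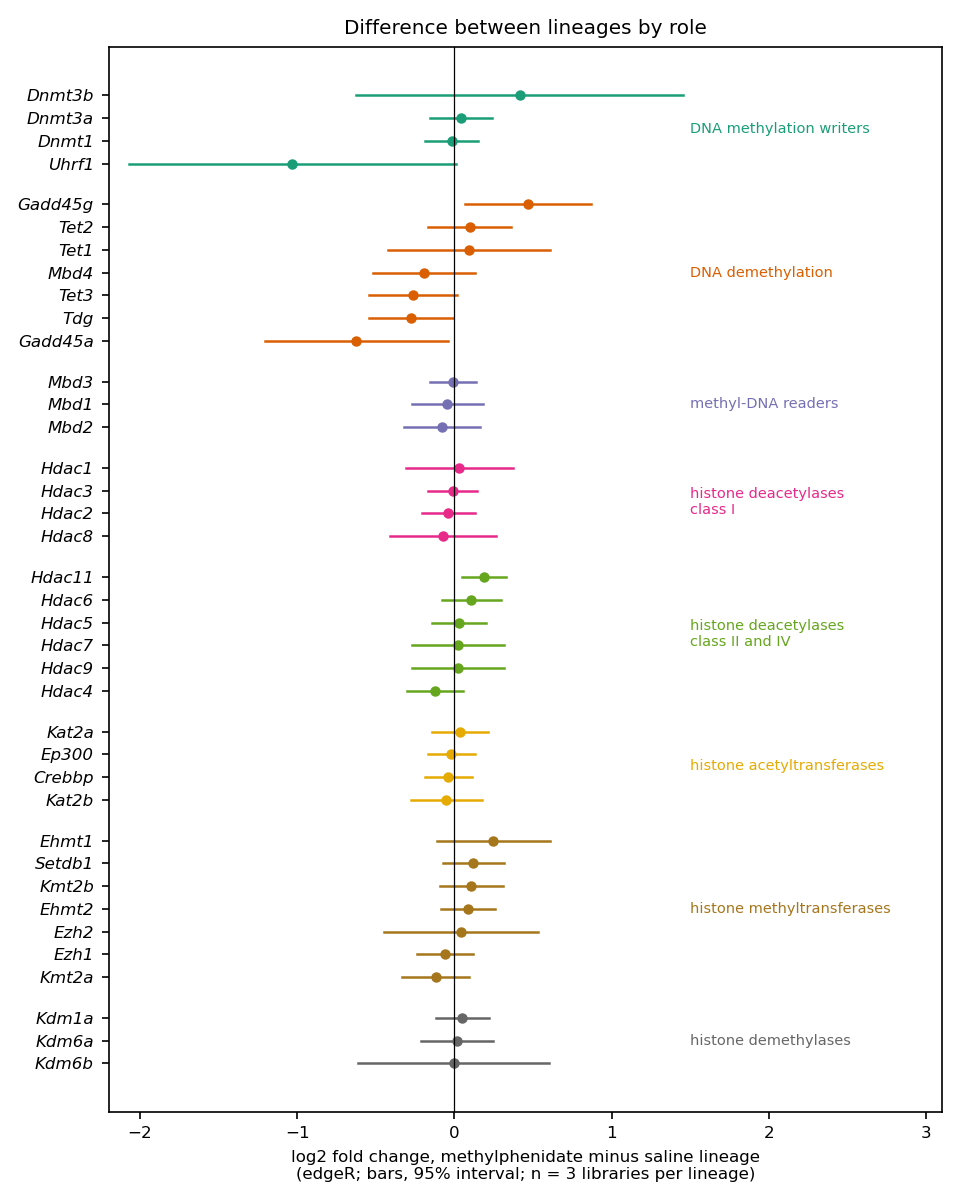
Log2 fold change of each gene, methylphenidate minus saline lineage (x axis), grouped by role, with the 95% interval from edgeR as a bar (n = 3 libraries per lineage). Most points lie near 0, and the widest bars belong to Uhrf1, Dnmt3b, Kdm6b and Gadd45a.

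Among the DNA demethylation genes, the stress-inducible adaptors Gadd45g and Gadd45a, which have been linked to demethylation through repair and Tdg, pointed in opposite directions. Gadd45g (ENSMUSG00000021453) had 11.4, 8.11 and 9.59 CPM in methylphenidate replicates 1 to 3, against 7.50, 6.01 and 7.53 CPM in saline replicates 1 to 3. All 3 methylphenidate libraries were above all 3 saline libraries, and the gap between the nearest libraries was small. Its log2 fold change was 0.47 (SE 0.18, 95% interval 0.068 to 0.87; edgeR adjusted p = 0.606). Gadd45a (ENSMUSG00000036390) had 4.31, 4.88 and 5.56 CPM in the methylphenidate lineage, against 7.04, 5.16 and 10.5 CPM in the saline lineage. Here saline replicate 2 lay within the methylphenidate range, and saline replicate 3 stood well above the rest. Its log2 fold change was -0.62 (SE 0.26, 95% interval -1.21 to -0.041; edgeR adjusted p = 0.636), and the value was -0.31 without saline replicate 3 (edgeR adjusted p = 0.818).

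Lineages that did not overlap were found in 4 of the 38 genes, with Hdac11 and Gadd45g higher and Tdg and Hdac4 lower, against 13.5% of all genes tested (6.97% higher and 6.51% lower). The striatal markers by centred mean and the hypothalamic and basal forebrain markers by sum also separated the lineages, as Gadd45g did. The part of tissue from beyond the cortex in these values was not tested. The antisense-strand gene E230016M11Rik overlaps exons of Gadd45a in the GENCODE M21 annotation and held 48.6% as many counts. No source used here states whether counting used strand, so reads of the pair cannot be told apart. E230016M11Rik had 58, 42 and 85 counts in the methylphenidate lineage, against 93, 82 and 102 counts in the saline lineage (edgeR adjusted p = 0.747).

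The promoters of these adaptors are shown because cytosine before guanine is the base on which the DNA methylation enzymes of this set act. Both adaptors were picked from the genes of smallest p. DNA methylation itself was not measured. Each sequence holds the 250 bases before the annotated start (RefSeq, GRCm38.p6, a different build from the GRCm39 of the counts), 5′ to 3′ on the gene's strand, with every CG in capitals. The Gadd45g window is chr13:51846425-51846674 on the plus strand and the Gadd45a window is chr6:67037408-67037657 on the minus strand.
Gadd45g: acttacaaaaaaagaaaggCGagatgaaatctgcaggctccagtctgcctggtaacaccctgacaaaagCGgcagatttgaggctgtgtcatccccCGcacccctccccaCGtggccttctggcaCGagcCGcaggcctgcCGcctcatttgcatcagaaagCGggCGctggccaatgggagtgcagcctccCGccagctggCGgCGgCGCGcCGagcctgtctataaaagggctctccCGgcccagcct
Gadd45a: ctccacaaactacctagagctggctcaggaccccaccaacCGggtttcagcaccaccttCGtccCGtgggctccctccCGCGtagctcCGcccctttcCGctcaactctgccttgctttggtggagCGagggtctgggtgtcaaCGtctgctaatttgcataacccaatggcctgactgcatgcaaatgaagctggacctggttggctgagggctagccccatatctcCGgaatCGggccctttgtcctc
The Gadd45g window held 16 CG dinucleotides and the Gadd45a window 11, and 74.6% and 64.4% of all 32851 promoter windows of this length held fewer. Promoter windows were read for 32 genes of the set, all but Mbd1, Mbd2, Hdac1, Hdac3, Kmt2b and Kdm6b. That these 6 were left out does not mean that they lack a RefSeq promoter. The 43 windows of the 32 genes had a median of 17 CG dinucleotides, against a median of 6 over all windows. These medians were not compared by a test, and the sets of windows were not matched. The highest counts were 51 for Tet2, 44 for Crebbp and 40 for Dnmt3a, while neither Hdac9 window held more than 2. The palindromic cyclic AMP response element TGACGTCA was found in 1 of these 32 genes, Tdg, and in 1.55% of all windows. The E-box CACGTG, also palindromic, was found in 6 of the 43 windows, from 5 genes, and in 6.02% of all windows. Gadd45g and Tdg were among these genes, and Gadd45a was not. The GC box GGGCGG, read on either strand, was found in 27 of the 43 windows, from 23 genes, and in 32.7% of all windows. It was in the Gadd45a window but not in the Gadd45g window. These letters say nothing of whether a factor binds there.

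Tdg (ENSMUSG00000034674), the glycosylase that removes oxidised methylcytosine, had the smallest spread within a lineage of these demethylation genes. Its coefficient of variation was 2.92% in the methylphenidate and 3.51% in the saline lineage, below the 5.75% that counting error alone gives. Tdg had 11.1, 10.4 and 10.7 CPM in the methylphenidate lineage, against 12.5, 13.2 and 13.4 CPM in the saline lineage. The groups did not overlap, and the log2 fold change was -0.28 (SE 0.12; edgeR adjusted p = 0.643). With each library left out in turn the value stayed between -0.31 and -0.26, and no such fit gave an unadjusted p under 0.05. The level of Tdg is uncertain, since the table also lists pseudogenes that can share its reads. Tdg-ps2 had 13.7, 12.8 and 13.3 CPM in the methylphenidate lineage, against 12.6, 13.2 and 14.9 CPM in the saline lineage, with groups that overlapped. Tdg summed with Tdg-ps2 and Tdg-ps, rows added after their values were seen, averaged 24.9 ± 0.51 CPM in the methylphenidate lineage and 27.9 ± 1.52 CPM in the saline lineage (SD, n = 3 each), a difference of -0.16 in mean log2 CPM. Tdg also overlaps 367 exonic bases of Glt8d2 on the opposite strand, which had 274, 437 and 284 counts in the methylphenidate lineage, against 394, 414 and 385 counts in the saline lineage.

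The oxidising enzymes Tet1, Tet2 and Tet3 were all present. Tet3 (ENSMUSG00000034832), the most abundant of them per length, had 67.7, 71.1 and 79.8 CPM in the methylphenidate lineage, against 99.6, 69.8 and 93.3 CPM in the saline lineage. Saline replicates 1 and 3 were above all other libraries, while saline replicate 2 was among the methylphenidate libraries. The log2 fold change was -0.27 (SE 0.12; edgeR adjusted p = 0.676), and it was -0.40 without saline replicate 2 (adjusted p = 0.368) and -0.16 without saline replicate 1. Tet2 had 35.8, 37.9 and 43.2 CPM in the methylphenidate lineage, against 33.5, 33.4 and 42.4 CPM in the saline lineage, with a log2 fold change of 0.098 (SE 0.12). Tet1 had 18.4, 16.4 and 10.8 CPM in the methylphenidate lineage, against 10.2, 15.3 and 17.3 CPM in the saline lineage, so that each lineage held both high and low libraries. Mbd4, a glycosylase that repairs the deamination product of methylcytosine, had 9.03, 7.90 and 8.56 CPM in the methylphenidate lineage, against 9.02, 9.45 and 10.7 CPM in the saline lineage (log2 fold change -0.20, SE 0.14). Over the 7 demethylation genes the median log2 fold change was -0.20, with 3 above 0 and 4 below, and 3 had an unadjusted p under 0.05, against 7.51% of all genes tested.

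**Figure D2:**
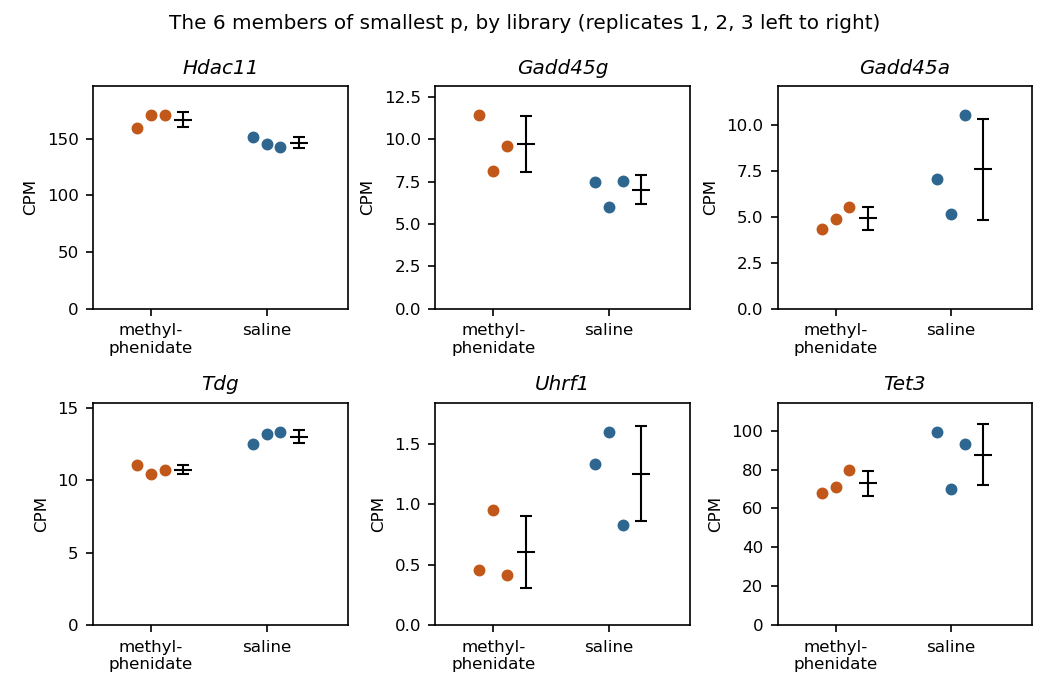
CPM in each library for the 6 genes of smallest p, with replicates 1 to 3 from left to right and the mean ± SD as a bar (n = 3 per lineage). Hdac11, Gadd45g and Tdg had lineages that did not overlap, with 159.1 to 171 CPM of Hdac11 in the methylphenidate lineage and 142 to 152 CPM in the saline lineage, while in Gadd45a, Uhrf1 and Tet3 the lineages overlapped.

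The writers of DNA methylation differed far more between genes than between lineages. Dnmt3a (ENSMUSG00000020661), the de novo methyltransferase of mature neurons, had 112, 106 and 115 CPM in the methylphenidate lineage, against 109, 94.9 and 119.7 CPM in the saline lineage. The log2 fold change was 0.043 (SE 0.088, 95% interval -0.15 to 0.24), and the lineages overlapped. Dnmt3b, the de novo enzyme of early embryos, had 21, 23 and 16 counts in the methylphenidate lineage, against 9, 14 and 21 counts in the saline lineage, with a log2 fold change of 0.41 (SE 0.47). At such counts, counting error alone gives a coefficient of variation of 24.0%, and the 95% interval reached from -0.63 to 1.46. Dnmt1, the maintenance enzyme, lay between 50.6 and 55.3 CPM in all 6 libraries and had a log2 fold change of -0.017 (SE 0.075). Uhrf1 (ENSMUSG00000001228), its partner at copied DNA, had 11, 27 and 10 counts in the methylphenidate lineage, against 35, 41 and 20 counts in the saline lineage. Methylphenidate replicate 2 overlapped the saline lineage, and the log2 fold change was -1.03 (SE 0.46, 95% interval -2.07 to 0.0074; edgeR adjusted p = 0.666). Of 9 proliferation markers, genes of dividing cells among which Uhrf1 is usually counted, 2 had a log2 fold change above 0 and 7 below. Their sums of 35.4 to 37.2 CPM in the methylphenidate lineage overlapped those of 35.3 to 41.1 CPM in the saline lineage. Pcna made up a large share of these sums. By gene, Ccnb1 (5 to 20 counts) and Rrm2 (22 to 48 counts) were lower without overlap, and Mcm2 was higher without overlap. The part of dividing cells in the value of Uhrf1 was not tested.

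The readers of methylated DNA overlapped between the lineages in all 3 genes. Mbd3, a subunit of the nucleosome remodelling and deacetylase complex that in mammals binds methylated DNA poorly, lay between 103 and 114 CPM in all libraries. Its log2 fold change was -0.011 (SE 0.065). Mbd2, which brings the same complex to methylated DNA, had 35.0, 35.3 and 45.1 CPM in the methylphenidate lineage, against 42.0, 40.6 and 39.3 CPM in the saline lineage. Methylphenidate replicate 3 was above the saline lineage and the other methylphenidate libraries were below it. The log2 fold change of Mbd2 was -0.080 (SE 0.11), and it was -0.21 without methylphenidate replicate 3 (edgeR adjusted p = 0.924) and between -0.10 and -0.018 with any other library left out. Mbd1 differed by -0.047 (SE 0.10) on the log2 scale. All 3 intervals lay within a 1.5-fold change.

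Of the histone deacetylases, Hdac11 (ENSMUSG00000034245) had the smallest p of the whole set. Hdac11 is the sole class IV deacetylase and is also known to remove fatty acyl groups from lysine. It had 159.1, 171 and 171 CPM in the methylphenidate lineage, against 152, 146 and 142 CPM in the saline lineage, and every methylphenidate library was above every saline library. The log2 fold change was 0.19 (SE 0.062, 95% interval 0.049 to 0.33; edgeR adjusted p = 0.553), and 429 genes of the table ranked at or before it by p. With each library left out in turn it stayed between 0.17 and 0.22, and 5 of these 6 fits, all but that without saline replicate 3, kept an unadjusted p under 0.05. The 6 markers of oligodendrocyte precursors summed to 291, 296 and 292 CPM in the methylphenidate lineage, against 251, 222 and 275 CPM in the saline lineage, and all 6 had a log2 fold change above 0. In this sum the lineages did not overlap, as for Hdac11, although by gene only 3 of the 6 were apart. Of 6 markers of mature oligodendrocytes, 3 had a log2 fold change above 0 and 3 below, and 0 were apart. A direction above 0 was not particular to the precursor list. All 6 astrocyte markers were above 0, with 0 apart, as were 5 of 6 microglia markers, with 1 apart. The part of oligodendrocyte precursors or of tissue from beyond the cortex in Hdac11 was not tested.

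The class II enzymes, large deacetylases of which class IIa moves between nucleus and cytoplasm with neuronal activity, had small differences. Hdac4 had 71.3, 71.7 and 61.4 CPM in the methylphenidate lineage, against 77.4, 72.9 and 72.1 CPM in the saline lineage. The lineages did not overlap, but methylphenidate replicate 2 and saline replicate 3 nearly met, and the log2 fold change was -0.12 (SE 0.080; edgeR adjusted p = 0.783). Hdac6, the cytoplasmic tubulin deacetylase of class IIb, had 51.5, 46.4 and 55.1 CPM in the methylphenidate lineage, against 46.6, 47.9 and 47.4 CPM in the saline lineage (log2 fold change 0.11, SE 0.084). Hdac5, Hdac7 and Hdac9 had log2 fold changes of 0.019 to 0.028. Hdac9 was high in the same-numbered library of each lineage, with 56.1 CPM in methylphenidate replicate 2 and 55.3 CPM in saline replicate 2. The other 4 libraries had 43.2 to 44.0 CPM. The labels do not say whether the numbers pair the samples.

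The class I deacetylases, the nuclear enzymes of repressor complexes, had log2 fold changes between -0.073 and 0.030. Hdac2 (ENSMUSG00000019777), which has been linked to restraint of memory genes in mouse neurons, had 73.4, 65.9 and 66.5 CPM in the methylphenidate lineage, against 66.6, 73.9 and 71.0 CPM in the saline lineage (log2 fold change -0.040, SE 0.076). Hdac1 had 10.4, 14.7 and 13.2 CPM in the methylphenidate lineage, against 11.5, 12.8 and 13.2 CPM in the saline lineage (log2 fold change 0.030, SE 0.15). The row Hdac1-ps held 127 to 175 counts in each library, so the level of Hdac1 is uncertain. For Hdac3 the log2 fold change was -0.010 (SE 0.070), and for Hdac8 it was -0.073 (SE 0.15).

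The acetyltransferases had the narrowest range of log2 fold changes of any role with 4 genes, from -0.051 to 0.034. The coactivator Crebbp had 58.4, 59.7 and 57.3 CPM in the methylphenidate lineage, against 60.1, 61.4 and 58.8 CPM in the saline lineage. Its partner Ep300 had 70.3, 74.3 and 75.9 CPM in the methylphenidate lineage, against 76.5, 72.0 and 75.0 CPM in the saline lineage. For both, the interval kept within 0.20 of 0 on the log2 scale (-0.19 to 0.11 for Crebbp and -0.17 to 0.13 for Ep300). Kat2a, the acetyltransferase of the SAGA complex, had 53.1, 59.5 and 61.2 CPM in the methylphenidate lineage, against 55.5, 55.9 and 58.4 CPM in the saline lineage. Kat2b, its close relative, had 21.2, 19.2 and 22.7 CPM in the methylphenidate lineage, against 22.8, 20.6 and 22.0 CPM in the saline lineage. In all 4 genes the lineages overlapped.

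Among the histone methyltransferases, Ehmt1 (ENSMUSG00000036893), which with Ehmt2 places dimethylation on lysine 9 of histone H3, turned on 1 library. It had 32.1, 47.5 and 30.8 CPM in the methylphenidate lineage, against 31.8, 33.5 and 27.6 CPM in the saline lineage. Methylphenidate replicate 2 stood above the other 5 libraries. On the log2 scale the difference was 0.25 (SE 0.16; adjusted p by edgeR 0.782), and it was 0.019 without that library. Ehmt2 had 191, 195 and 229 CPM in the methylphenidate lineage, against 195, 188 and 196 CPM in the saline lineage, so replicate 2 was not high in the partner gene (log2 fold change 0.087, SE 0.077).

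Ezh1 and Ezh2 are the alternative catalytic subunits of Polycomb repressive complex 2, which methylates lysine 27 of histone H3. Ezh1, the form of non-dividing cells, had 51.4, 60.5 and 56.6 CPM in the methylphenidate lineage, against 58.6, 59.3 and 58.1 CPM in the saline lineage (log2 fold change -0.063, SE 0.079). Ezh2, the form of dividing cells, had 5.96, 4.29 and 7.12 CPM in the methylphenidate lineage, against 5.33, 6.17 and 5.33 CPM in the saline lineage (log2 fold change 0.043, SE 0.22). The lineages overlapped in both. Setdb1, which silences retroviral elements through lysine 9 of histone H3, had 38.8, 39.8 and 36.9 CPM in the methylphenidate lineage, against 35.9, 32.9 and 37.4 CPM in the saline lineage (log2 fold change 0.12, SE 0.085). Kmt2a, a writer of methylation on lysine 4 of histone H3, had 144, 167 and 161 CPM in the methylphenidate lineage, against 164, 154 and 195 CPM in the saline lineage (log2 fold change -0.12, SE 0.095), and its relative Kmt2b had a log2 fold change of 0.11 (SE 0.089).

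Of the demethylases, Kdm6b was the most variable gene of the set with more than 500 counts in each library. Kdm6b, which removes lysine 27 methylation from histone H3 and is induced by stimuli in many cell types, had 21.0, 36.4 and 37.3 CPM in the methylphenidate lineage, against 28.7, 21.6 and 44.8 CPM in the saline lineage. Its coefficient of variation was 29.1% in the methylphenidate and 37.5% in the saline lineage, while counting error gives 3.52%. The log2 fold change was -0.0059 (SE 0.27), but the interval reached from -0.61 to 0.60. The 8 activity-induced genes, among them Fos, Arc and Egr1, summed to 654, 977 and 618 CPM in the methylphenidate lineage and to 889, 724 and 1193 CPM in the saline lineage. Saline replicate 3 was highest and saline replicate 2 lowest of the saline lineage in both Kdm6b and this sum, whereas methylphenidate replicate 3 was the highest of its lineage in Kdm6b and the lowest in the sum. The part of neuronal activity in Kdm6b was not tested. Kdm6a, the X-linked relative, had 36.4, 36.7 and 31.0 CPM in the methylphenidate lineage, against 32.2, 33.0 and 37.7 CPM in the saline lineage (log2 fold change 0.017, SE 0.10). Kdm1a, which acts on lysine 4 of histone H3, had a log2 fold change of 0.049 (SE 0.075).

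Levels were compared between genes per length, as CPM per kilobase of exon averaged over the 6 libraries, with the summed exons of GENCODE M21 as length. This understates genes whose annotated exons are in part unused in the cortex. The levels covered a 403-fold range. Mbd3 was highest at 53.9, followed by Hdac11 at 40.7 and Ehmt2 at 36.2, and these 3 were above the 90th percentile of all 17993 tested genes with a length. Dnmt3b at 0.134 and Uhrf1 at 0.218 were lowest and lay below the 10th percentile, and next above them came Ezh2 at 0.854 and Tet1 at 0.953. Of the 38 genes, 27 were above the median of all genes, 3.77 CPM per kilobase. Neighbours in this order had overlapping library ranges in 31 of 37 steps. The 6 steps without overlap were below Mbd3, Ehmt2, Hdac2, Hdac9, Mbd4 and Ezh2.

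**Figure D3:**
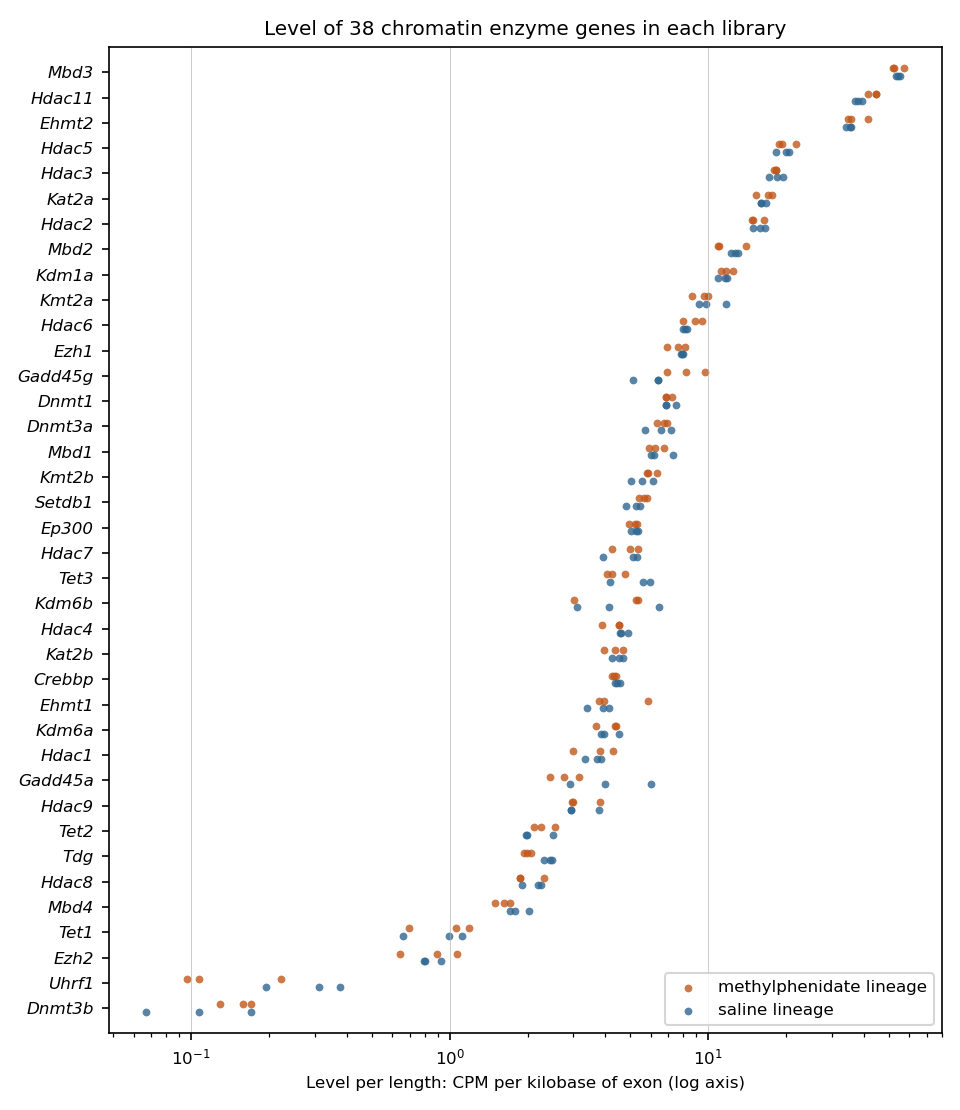
Level of each of the 38 genes per kilobase of exon in each library (log x axis), with the genes in order of their mean and the lineages in different colours. The order runs from 53.9 CPM per kilobase for Mbd3 to 0.134 for Dnmt3b, and the points of both lineages lie together in nearly every gene.

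Most related genes were present at unequal levels, in the same order in every library except for Dnmt3a with Dnmt1 and Kdm6a with Kdm6b. These ratios are per length within a library and carry no test, and some pairs (Dnmt3a with Dnmt1, Gadd45g with Gadd45a, Tet3 with Tet1 and Tet2, and Kmt2a with Kmt2b) were added after counts were seen. Dnmt3a exceeded Dnmt3b by 39.7 to 97.9 times, Ezh1 exceeded Ezh2 by 7.13 to 12.7 times and Ehmt2 exceeded Ehmt1 by 6.09 to 11.0 times. Kat2a exceeded Kat2b by 3.40 to 4.32 times, and Hdac1 reached 0.183 to 0.289 of Hdac2. Crebbp and Ep300, in contrast, were nearly equal at 0.795 to 0.900, and Dnmt3a and Dnmt1 at 0.830 to 1.04. The latter value rests on the lengths used, 16642 bases for Dnmt3a and 7377 for Dnmt1. In CPM without length, Dnmt3a was above Dnmt1 in every library. Kdm6a and Kdm6b changed order between libraries, from 0.689 to 1.44.

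The Gadd45g to Gadd45a ratio was 3.99, 2.50 and 2.60 in the methylphenidate lineage, against 1.60, 1.75 and 1.07 in the saline lineage. Tet3 to Tet2 was 1.91, 1.89 and 1.87 in the methylphenidate lineage, against 3.01, 2.11 and 2.22 in the saline lineage. In both of these pairs, of the 12 computed, the lineages did not overlap. Both were among the pairs added after counts were seen, and in all other pairs the lineages overlapped. Of single genes, 13.5% of all tested did not overlap, and the share over gene pairs was not computed. The ratios repeat the single-gene values given above, none of which passed the adjusted threshold, and Gadd45a shares exonic sequence with an antisense gene.

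**Figure D4:**
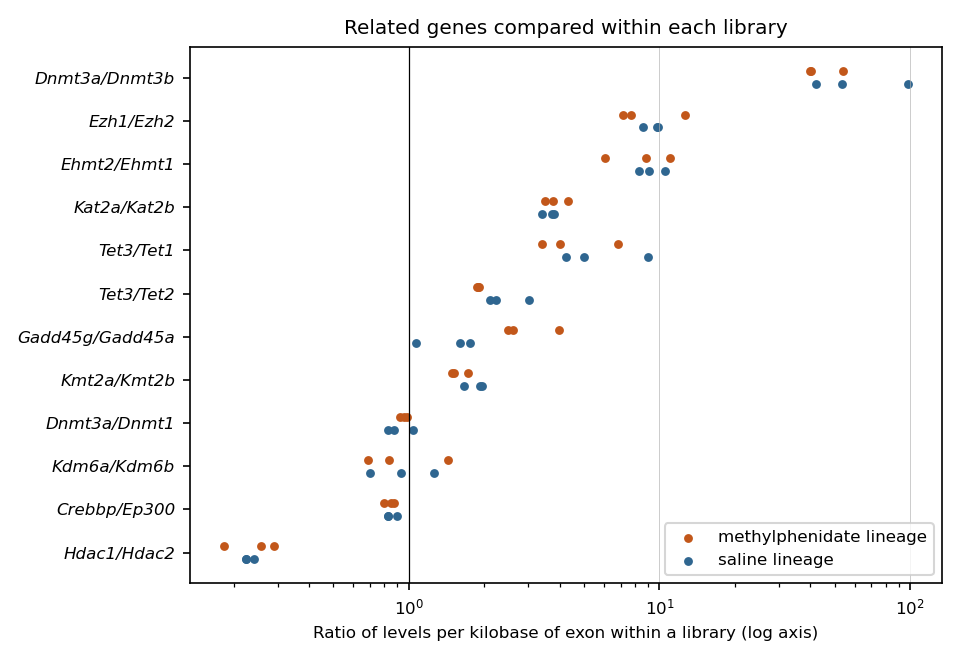
Ratio of the levels per length of related genes within each library (log x axis), with a line at 1. Dnmt3a over Dnmt3b lies farthest from 1, at 39.7 to 97.9. Gadd45g over Gadd45a, a pair added after counts were seen, is at 2.50 to 3.99 in the methylphenidate lineage and at 1.07 to 1.75 in the saline lineage.

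Grouped by role, the mean of centred log2 CPM showed no role in which the lineages were apart. For the demethylation genes it was -0.0040, -0.089 and -0.042 in methylphenidate replicates 1 to 3, against -0.020, -0.099 and 0.25 in saline replicates 1 to 3, where saline replicate 3 alone was high. For the writers of DNA methylation it was -0.099, 0.092 and -0.19 in the methylphenidate lineage, against -0.020, 0.10 and 0.11 in the saline lineage. Deacetylases of classes II and IV had -0.0058, 0.017 and 0.048 in the methylphenidate lineage, against 0.014, -0.045 and -0.029 in the saline lineage. The summed level of all 38 genes was 2033, 2125 and 2186 CPM in the methylphenidate lineage, against 2099, 2032 and 2177 CPM in the saline lineage.

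Further genes of these pathways were read in the same fit. Of 126 other genes listed by function, 122 were tested and none passed the adjusted threshold (edgeR; 3 at an unadjusted p under 0.05, or 2.46%, against 7.51% of all genes; 0 past the adjusted threshold in DESeq2 and limma-voom). Their median log2 fold change was -0.0057, with 58 above 0 and 64 below. In the acetylation list (33 tested), Trrap, a scaffold of acetyltransferase complexes, averaged 151 ± 1.2 CPM in the methylphenidate lineage and 133 ± 2.5 CPM in the saline lineage (SD, n = 3 each; log2 fold change 0.18, edgeR adjusted p = 0.526), and Sin3b, a corepressor, had a log2 fold change of 0.16 (SE 0.080). In the histone methylation list (59 tested), the demethylase Kdm2a differed by -0.17 on the log2 scale (SE 0.066; adjusted p by edgeR 0.606) and Kmt2e by -0.14 (SE 0.066). In the DNA methylation list (18 tested), Zfp57, which protects methylation at imprinted regions, had 10.5 ± 0.88 CPM in the methylphenidate lineage and 8.50 ± 0.44 CPM in the saline lineage (SD, n = 3 each; log2 fold change 0.30, edgeR adjusted p = 0.672), and Ung, a uracil glycosylase, had a log2 fold change of 0.42 (SE 0.26). In the methyl donor list (12 tested), Ahcy, which clears the by-product of methylation, had 14.3 ± 5.1 CPM in the methylphenidate lineage and 8.67 ± 1.27 CPM in the saline lineage (SD, n = 3 each; log2 fold change 0.72, edgeR adjusted p = 0.549) with lineages that overlapped, and Mat2b had a log2 fold change of -0.19 (SE 0.088).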

How the data were processed

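The authors deposited raw counts, 1 whole number per gene and library, beside Ensembl identifiers and gene symbols. Per the submitters' processing notes, the tools were fastp 0.23.4, bcl2fastq 2.19, StringTie 2.2.1 and HISAT2 2.2.1 and the build was GRCm39. For the annotation release and the strand setting, nothing is given in the sources.

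All genes entered 1 fit in edgeR 4.0.16 under R 4.3.3 (filterByExpr, TMM, glmQLFit and glmQLFTest, group as the only term, two-sided, Benjamini-Hochberg over all genes tested). Standard errors come from the fold change and the F statistic, and 95% intervals use the test's degrees of freedom. Nothing says that the mice come from separate litters, so the p-values and intervals reflect spread among these samples, which may be technical. The genes, lists and tests were chosen with earlier results of these data known. Genes described library by library are the 12 of smallest p, 7 related pairs and the Tet genes. Mbd2 and, in part, Hdac9 were also described in this way, outside that rule. Alternatives were other scalings, filters, DESeq2 1.42.0, limma-voom (limma 3.58.1), a replicate block and leaving out each library. The analysis was tested on simulated data. A count of 0 allows up to 3 counts (0.107 to 0.126 CPM), for counting error only. Lengths, overlaps and promoters come from GENCODE M21 and RefSeq on GRCm38 and were matched by identifier or symbol. Within a group, the chi-square between libraries was 13.0 to 19.9 per degree of freedom, so none was a copy of another within counting error. It cannot show that libraries come from separate animals, since separate preparations of 1 sample can also differ beyond counting error. Some genes, such as Dppa3, were not analysed here.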

Additional observations from a re-analysis of the deposited data

How the results depend on the processing

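In the 38 genes, no result passed the adjusted threshold under any alternative run, nor did any of the 126 further genes, and the smallest adjusted p of the 38 lay between 0.368 (Tet3, saline replicate 2 left out) and 0.924 (methylphenidate replicate 3 left out). The number of the 38 at an unadjusted p under 0.05 was 1 to 5, with Hdac11 among them in all fits but that without saline replicate 3. The count of genes past the threshold in the whole table, 5, was 149 with DESeq2, 10 with total counts, 3 without a filter and 2 to 26 with a library left out. With the replicate number as a block it was 2. Same-numbered samples deviated together with correlations of -0.044, 0.091 and -0.024 over genes. Not every sample correlated best with its own number, though replicate 2 of each lineage did. These values do not settle whether the numbers pair the samples, and the labels do not say. The stricter filter left 36 of the 38 genes, without Dnmt3b and Uhrf1.

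Some log2 fold changes near 0 changed sign. Kdm6b was at 0.0006 with total counts, 0.028 with limma-voom and 0.0080 with the replicate block, and Ezh2 was at -0.0020 with limma-voom. With each library left out in turn, values reached from -0.045 to 0.024 for Dnmt1, -0.042 to 0.12 for Dnmt3a, -0.10 to 0.29 for Tet1, -0.10 to 0.049 for Mbd1, -0.059 to 0.013 for Mbd3, -0.086 to 0.16 for Hdac1, -0.058 to 0.032 for Hdac3, -0.042 to 0.068 for Hdac5, -0.10 to 0.11 for Hdac7, -0.11 to 0.15 for Hdac9, -0.0080 to 0.092 for Kat2a, -0.11 to 0.0098 for Kat2b, -0.045 to 0.010 for Ep300, -0.13 to 0.22 for Ezh2, -0.028 to 0.091 for Kdm6a and -0.22 to 0.33 for Kdm6b. None of these values passed the threshold, so their direction is not established. Depth limits Dnmt3b and Uhrf1, with 9 to 41 counts per library.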

Other observations

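Relatives of the de novo methyltransferases that act in germ cells were near the limit of detection in the cortex. Dnmt3l, a cofactor without catalytic activity that establishes imprints, had 29 counts over the 6 libraries and lay below the expression filter. Dnmt3c, which in mice methylates young retroelements in the male germ line, had 12 counts over the 6 libraries. Neither could be compared between the lineages.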
